A study of Mus musculus with 6 samples.

Results

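Baiap3, the calcium sensors Doc2a and Doc2b, the Munc13 genes Unc13a, Unc13b, Unc13c and Unc13d, and the CAPS genes Cadps and Cadps2 encode C2-domain proteins that prepare vesicles for fusion. They were found by symbol and make up 9 of the 54134 entries in each count file. Baiap3 and Doc2b were selected on their counts in these libraries, because both were higher in mutants given GSK-LSD1, so their values below are a description without a test. The other 7 genes were added as their relatives, and all 9 passed the filter on low counts and were among the 18705 genes tested.

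Before a vesicle can fuse it is docked and then primed, a step in which the SNARE proteins of vesicle and plasma membrane begin to assemble. Munc13 proteins carry a MUN domain that helps syntaxin-1 leave its closed state, CAPS proteins share this kind of domain and serve mainly dense-core vesicles, and DOC2 proteins bind calcium with high affinity and act in spontaneous and asynchronous release. Baiap3 is a Munc13 relative known from endocrine cells, where it takes part in endosomal recycling and dense-core vesicle exocytosis, and in mouse brain it is known chiefly from the hypothalamus.

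The study sequenced RNA from whole lysate of mouse prefrontal cortex at 6 to 8 weeks of age. Mice heterozygous for Shank3 +/ΔC, an allele that removes the C-terminal part of this postsynaptic scaffold, received GSK-LSD1, an inhibitor of the histone demethylase LSD1 (Kdm1a). Mice of the same genotype received vehicle, as did wild-type controls of a C57BL/6 x C3H cross, so vehicle-treated mutants share the allele and wild-type mice share the vehicle. The sources used here do not give the strain background of the mutants, the sex of the animals, or the dose and schedule. Each group had 2 libraries, 1 per mouse. Levels are CPM, read counts scaled to a common library size after TMM adjustment, and errors are SD over the 2 libraries. A gene passed when its adjusted p was under 0.05 in edgeR's quasi-likelihood test, with Benjamini-Hochberg adjustment over all tested genes.

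Libraries held 14133834 to 28646960 counted reads, so the floor of 3 counts lies at 0.105 to 0.212 CPM, which covers counting error only. Shank3 lay at 154 ± 7.54 CPM with GSK-LSD1, 160.1 ± 20.2 CPM in vehicle-treated mutants and 156 ± 4.90 CPM in wild type. These whole-gene counts include exons outside the deletion and check the genotype in a limited way only. Kdm1a lay at 92.6 ± 3.77 CPM with GSK-LSD1, 91.7 ± 7.68 CPM in vehicle-treated mutants and 97.5 ± 6.22 CPM in wild type, and neither gene passed in any comparison. The vesicular glutamate transporter Slc17a7, a marker of cortical excitatory neurons, lay between 1156 and 1923 CPM in the 6 libraries. The treated libraries did not stand together in oligodendrocyte markers. The summed level of 12 such markers was 2504 and 5873 CPM with GSK-LSD1. It was 6178 and 6230 CPM in vehicle-treated mutants, above the 2711 and 2462 CPM in wild type. Of these markers Mbp, a myelin protein, had 717 and 1763 CPM, 1877 and 1836 CPM, and 763 and 760.5 CPM in the same order of groups.

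Baiap3 lies on chromosome 17 (GRCm38, chr17:25242659-25256364, minus strand). It had 42.4 and 51.6 CPM in mutants given GSK-LSD1, 11.6 and 6.89 CPM in mutants given vehicle, and 8.76 and 7.37 CPM in wild type. Both treated libraries stood far above the other 4, and the vehicle-treated mutants overlapped the wild type. The values rest on 1001 and 758 reads, 252 and 152 reads, and 128 and 204 reads in the same order. Group means were 47.0 ± 6.51, 9.24 ± 3.32 and 8.07 ± 0.983 CPM. Treated mutants were 5.08-fold above vehicle-treated mutants (log2 fold change 2.35 ± 0.21, SE) and 5.87-fold above wild type (2.55 ± 0.22), while vehicle-treated mutants differed from wild type by 0.21 ± 0.22. These are bulk samples, in which more cells that express a gene and more RNA per cell cannot be told apart.

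Doc2b lies on chromosome 11 (chr11:75768966-75796049, minus strand). It had 24.3 and 23.2 CPM with GSK-LSD1, 11.3 and 11.3 CPM in vehicle-treated mutants, and 16.4 and 11.9 CPM in wild type. The treated libraries again stood above all others, but by less than for Baiap3, and both vehicle-treated mutants lay just under the lower wild-type library. Reads were 573 and 341 with GSK-LSD1, 246 and 250 in vehicle-treated mutants, and 240 and 329 in wild type. Treated mutants were 2.10-fold above vehicle-treated mutants (1.07 ± 0.17) and 1.70-fold above wild type (0.76 ± 0.17), and vehicle-treated mutants stood at -0.31 ± 0.17 against wild type. The difference from wild type depended on the wild-type library used: it was 1.00 without replicate 1 and 0.53 without replicate 2.

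Between treated and vehicle-treated mutants 20 genes in all passed, 0.107% of those tested: 0.102% as higher and 0.00535% as lower. Nothing is read from the 2 of 9 genes found there, since they were chosen by this difference.

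**Figure D1:**
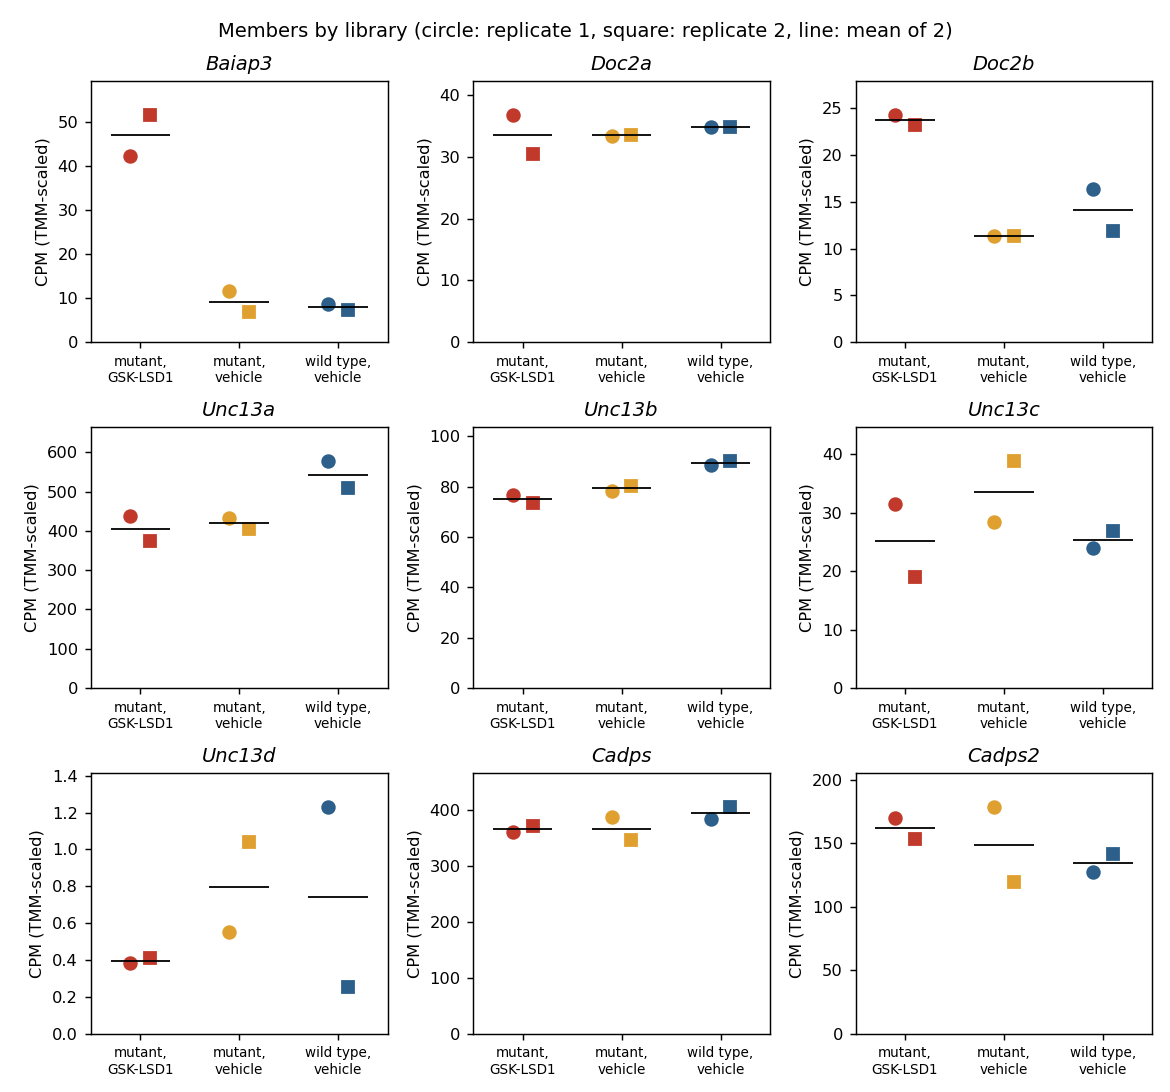
Level of each of the 9 genes in CPM (y axis, from 0) in each library, by group: mutants given GSK-LSD1 (red), mutants given vehicle (yellow) and wild type given vehicle (blue). Circles are replicate 1, squares replicate 2 and lines the mean of 2. The treated libraries lie at 42.4 and 51.6 CPM for Baiap3 and at 24.3 and 23.2 CPM for Doc2b, above all 4 vehicle libraries, and the treated and vehicle-treated mutants overlap for 5 of the other 7 genes.

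The promoter window of Baiap3 is shown because this gene had the larger change and because the inhibitor acts on a chromatin enzyme. It spans 250 bases before to 50 bases after the annotated start (RefSeq, GRCm38.p6, chr17:25256315-25256614, minus strand, written 5′ to 3′ on the gene's strand). Capitals mark GC boxes, GGGCGG or CCGCCC, of which 2 overlap.
Baiap3: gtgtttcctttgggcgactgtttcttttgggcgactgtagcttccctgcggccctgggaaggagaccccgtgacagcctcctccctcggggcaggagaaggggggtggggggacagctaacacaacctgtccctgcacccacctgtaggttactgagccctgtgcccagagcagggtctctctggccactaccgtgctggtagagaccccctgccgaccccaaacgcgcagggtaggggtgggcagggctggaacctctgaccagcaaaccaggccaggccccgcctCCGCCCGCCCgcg
GC content was 66.3% with 14 CpG, against medians of 52.7% and 7 CpG in 32851 windows of this length. The GC boxes begin 38 and 42 bases after the start, and 35.7% of all windows hold at least 1 on either strand. An E-box (CACGTG, in 7.15% of windows), a CRE (TGACGTCA, 1.79%) and a TATA box (TATAAA, 13.6%), searched on both strands, have no match in these letters. Windows were found for 6 of the 9 genes: Baiap3, Unc13a, Unc13b, Unc13c, Cadps and Cadps2.

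Genes near Baiap3 and Doc2b did not pass. Within 50 kb of Baiap3, treated against vehicle-treated mutants, the log2 fold changes were 0.31 ± 0.16 for Unkl, 0.14 ± 0.12 for Gnptg and 0.37 ± 0.18 for Tsr3. Near Doc2b they were -0.03 ± 0.11 for Ywhae and -0.42 ± 0.66 for Rph3al. Tsr3 lies on the opposite strand and shares 140 exonic bases with Baiap3, 2.74% of its exonic length. Whether reads were counted by strand is not given in the sources used here. Tsr3 itself lay at 11.4 and 10.97 CPM with GSK-LSD1, 8.96 and 8.44 CPM in vehicle-treated mutants, and 8.35 and 8.06 CPM in wild type, so its treated libraries were above the others by less than 4 CPM.

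Since Baiap3 is known from hypothalamus, markers of hypothalamus, septum and preoptic area were read in the same libraries. Their list held 28 genes, of which 12 passed the filter and 17 lay under 1 CPM on average. Its summed level was 64.4 and 123 CPM with GSK-LSD1, 51.5 and 68.3 CPM in vehicle-treated mutants, and 50.04 and 51.1 CPM in wild type. Treated replicate 2 stood apart, while treated replicate 1 lay under the higher vehicle-treated mutant. Of the 12 tested markers 11 had a positive log2 fold change between treated and vehicle-treated mutants, with a median of 0.72. Of all 18705 genes 9330 were positive. By edgeR, DESeq2 and limma-voom 0 of the 12 markers passed. In edgeR 2 of the 12 had an unadjusted p under 0.05, as did 5.70% of all genes. Without the filter on low counts edgeR called Ecel1 and Zic2 higher, and more of all genes passed too. In treated mutants against wild type 0 of the 12 passed, and the median was 0.87, against 0.02 over all genes. There 5 had an unadjusted p under 0.05 in edgeR, as did 15.7% of all genes. Without the filter 4 of the list were called higher there, Ecel1, Isl1, Zic2 and Zic5, and again more of all genes passed too. Zic1, a transcription factor of septum and other regions, carried much of the sum, with 15.0 and 49.3 CPM with GSK-LSD1, 12.1 and 24.8 CPM in vehicle-treated mutants, and 11.1 and 11.7 CPM in wild type. Other members of the list were also higher in treated libraries: Irs4 had 1.82 and 1.499 CPM with GSK-LSD1, 0.735 and 0.499 CPM in vehicle-treated mutants, and 0.479 and 0.723 CPM in wild type. Ecel1 had 2.501 and 5.79 CPM, 1.79 and 1.04 CPM, and 1.10 and 1.77 CPM in the same order. Isl1 had 33 reads in treated replicate 2, 0 in treated replicate 1 and at most 2 in each other library, and Magel2 had 4.36 CPM in treated replicate 2 against 1.05 to 1.88 CPM elsewhere. Nr5a1 had no read in any library, which allows at most 0.212 CPM, and Avp, Oxt, Hcrt and Pmch had at most 9, 2, 8 and 3 reads in a library. With treated replicate 1 alone against both vehicle-treated mutants, Baiap3 differed by 2.20 and Doc2b by 1.11 on the log2 scale, and with treated replicate 2 alone by 2.48 and 1.03. Both genes were chosen for their rise in these treated libraries, so these values are description only and do not bear on the markers.

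**Figure D2:**
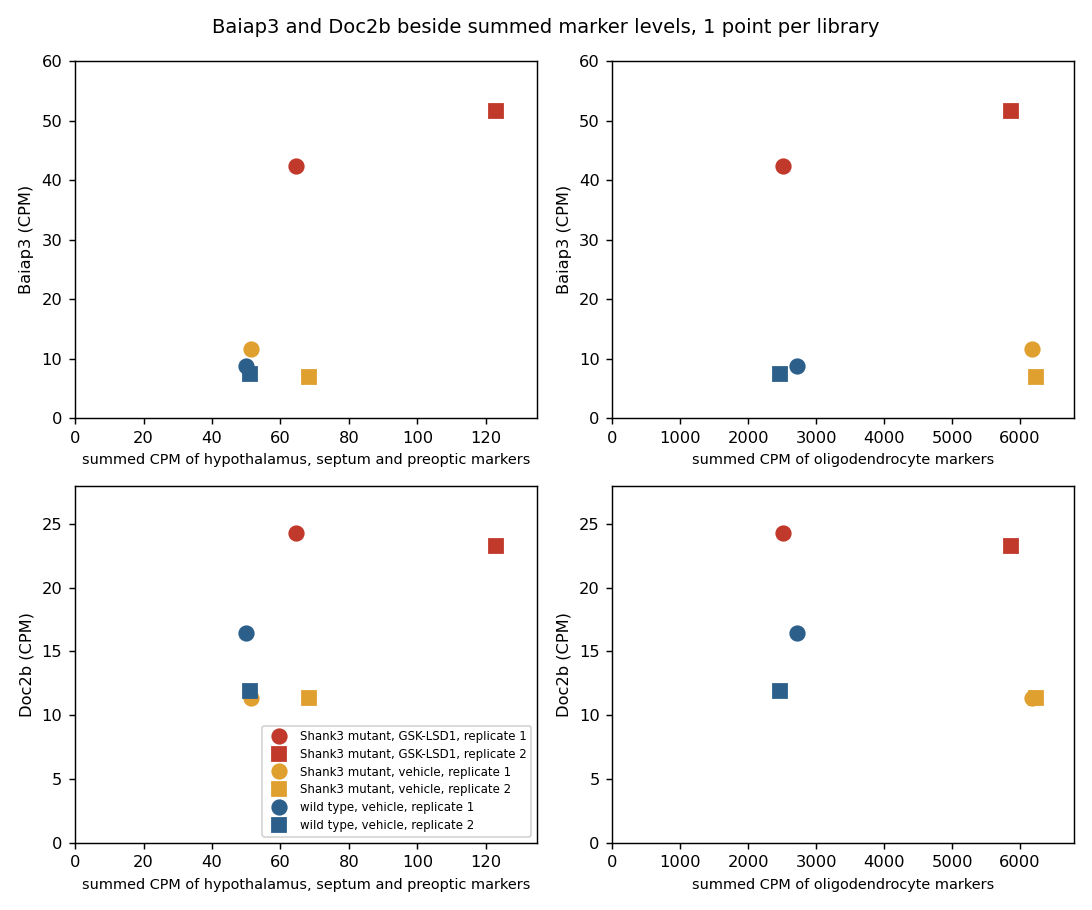
Baiap3 (top) and Doc2b (bottom) in CPM on the y axis against the summed CPM of 28 markers of hypothalamus, septum and preoptic area (left) and of 12 oligodendrocyte markers (right), 1 point per library, in red for mutants given GSK-LSD1, yellow for mutants given vehicle and blue for wild type. Treated libraries, at 64.4 and 123 CPM of the first list, have 42.4 and 51.6 CPM of Baiap3, and vehicle-treated mutants, at 51.5 and 68.3 CPM of that list, have 11.6 and 6.89 CPM.

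Markers of other cell types were read in the same way. Summed levels of 12 striatal markers were 216 and 187 CPM with GSK-LSD1 and 170 and 155 CPM in vehicle-treated mutants. In wild type they were 183 and 169 CPM, so both treated libraries were the highest. Of the 11 striatal markers tested 0 passed in treated against vehicle-treated mutants by edgeR, DESeq2 or limma-voom, 10 had a positive log2 fold change with a median of 0.37, and 4 had an unadjusted p under 0.05 in edgeR's test, as did 5.70% of all genes. Thalamus markers summed to 95.6 and 119 CPM, 94.5 and 109 CPM, and 84.1 and 81.9 CPM in the same order of groups. The 12 inhibitory neuron markers summed to 1094 and 1204 CPM, 1036 and 1194 CPM, and 1146 and 1186 CPM, and overlapped between groups, as did Gad1, the enzyme of GABA synthesis, at 166 and 202 CPM, 175 and 216 CPM, and 181 and 205 CPM. The 10 astrocyte markers summed to 4676 and 4617 CPM with GSK-LSD1, 4742 and 4918 CPM in vehicle-treated mutants, and 3540 and 4315 CPM in wild type, so all 4 mutant libraries lay above both wild-type libraries. Sums of microglia markers ran from 358 to 483 CPM over the 6 libraries and of endothelial markers from 130.4 to 185 CPM, and in each of these lists the treated libraries overlapped the vehicle-treated mutants or lay under them. The part of any of these lists in the levels of Baiap3 and Doc2b was not tested.

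Doc2a, the other DOC2 sensor and the neuronal form found throughout the forebrain (chr7:126847416-126852705, plus strand), overlapped between treated and vehicle-treated mutants. It had 36.8 and 30.4 CPM with GSK-LSD1, 33.4 and 33.6 CPM in vehicle-treated mutants, and 34.8 and 34.9 CPM in wild type. The treated libraries lay on both sides of the others. Its log2 fold change was 0.01 ± 0.12 for treated against vehicle-treated mutants (adjusted p = 0.999), -0.06 ± 0.12 for vehicle-treated mutants against wild type (adjusted p = 0.892) and -0.05 ± 0.12 for treated mutants against wild type (adjusted p = 0.904). With library size scaling the values against wild type were 0.01 and 0.03. The count of Doc2a is uncertain, since 1103 bases, 39.4% of its exonic length, lie opposite Ino80e, which averaged 12.3 CPM. Per unit of exonic length the ratio of Doc2b to Doc2a was 0.425 and 0.491 with GSK-LSD1, 0.217 and 0.217 in vehicle-treated mutants, and 0.303 and 0.219 in wild type.

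Unc13a, which encodes Munc13-1, the main priming factor of glutamatergic synapses in the forebrain (chr8:71624417-71671757, minus strand), was the most abundant of the 9 genes. It had 438 and 374 CPM with GSK-LSD1, 434 and 404 CPM in vehicle-treated mutants, and 578 and 508 CPM in wild type. All 4 mutant libraries lay under both wild-type libraries, and the treated and vehicle-treated mutants overlapped. Against wild type the log2 fold change was -0.37 ± 0.12 in vehicle-treated mutants (adjusted p = 0.128) and -0.42 ± 0.12 in treated mutants (adjusted p = 0.0654), and neither passed. Treated and vehicle-treated mutants differed by -0.05 ± 0.12 (adjusted p = 0.999). DESeq2 called Unc13a lower in both comparisons with wild type, with adjusted p = 0.0248 for vehicle-treated and 0.00684 for treated mutants. Limma-voom gave adjusted p = 0.103 and 0.0460.

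Some cortical excitatory neuron markers were also lower in mutants than in wild type. Slc17a7 lay at 1435 and 1156 CPM with GSK-LSD1, 1423 and 1276 CPM in vehicle-treated mutants, and 1923 and 1675 CPM in wild type. The 12 excitatory markers summed to 3792 and 3292 CPM, 3702 and 3766 CPM, and 4532 and 4301 CPM in the same order. Slc17a7 and Camk2a make up most of this sum, and the members differed: Camk2a had 1367 and 1238 CPM, 1218 and 1464 CPM, and 1350.1 and 1432 CPM, and in Camk2a, Neurod6, Cux2 and Rorb, among others, the 4 mutant libraries overlapped the wild type. By edgeR 1 of the 12 fell in vehicle-treated mutants against wild type and 3 in treated mutants against wild type. Astrocyte markers stood the other way, as given above: 2 of 10 rose in vehicle-treated mutants against wild type (Aqp4 and Gja1) and 3 in treated mutants (these and Aldh1l1). Without wild-type replicate 1 neither of these lists kept a call, but few of all genes passed in that fit in either comparison. Over all genes 0.994% passed as lower and 0.278% as higher in vehicle-treated mutants against wild type. In treated mutants against wild type these shares were 1.99% and 0.636%. Unc13a has 12.6 kb of exonic sequence. The 1440 tested genes with at least 10 kb and a mean of at least 1 CPM had a median log2 fold change of -0.10 in vehicle-treated mutants against wild type and -0.13 in treated mutants against wild type. Of these long genes 4.44% and 8.75% passed as lower. For the 13913 shorter genes the medians were 0.0052 and 0.02, and 0.863% and 1.73% passed as lower. The part of these markers or of length in the level of Unc13a was not tested.

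The promoter window of Unc13a is shown because it holds both half-sites of RE1, the element bound by REST, a repressor known to recruit the CoREST complex with LSD1. Capitals mark those half-sites, TTCAGCACC and GGACAGCGC, which read here as their reverse complements, and 2 GC boxes (RefSeq, GRCm38.p6, chr8:71671708-71672007, minus strand, 5′ to 3′ on the gene's strand).
Unc13a: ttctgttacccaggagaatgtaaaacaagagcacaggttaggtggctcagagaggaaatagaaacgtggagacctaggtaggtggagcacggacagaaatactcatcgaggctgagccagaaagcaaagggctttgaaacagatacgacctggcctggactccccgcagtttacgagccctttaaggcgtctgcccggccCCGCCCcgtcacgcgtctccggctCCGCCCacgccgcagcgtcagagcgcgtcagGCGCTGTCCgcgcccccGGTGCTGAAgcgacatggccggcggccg
The half-sites begin 6 and 23 bases after the start and are 8 bases apart, a wider gap than in the canonical element. Of all 32851 windows 0.371% hold the first half-site, 0.405% the second, and 5 windows, or 0.0152%, hold both. The other 4 belong to Lhx3, Psd, Ptprn2 and Tph2. The windows of the other 5 genes with one, Baiap3 among them, hold neither. A match is a run of letters, and binding was not measured here. With the inhibitor Unc13a did not pass against vehicle, nor did Rest itself in any comparison, which lay at 7.97 and 9.95 CPM with GSK-LSD1, 7.81 and 9.66 CPM in vehicle-treated mutants, and 4.997 and 6.54 CPM in wild type.

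Unc13b, which encodes Munc13-2, the second Munc13 of cortical synapses (chr4:43058953-43264871, plus strand), had 76.4 and 73.4 CPM with GSK-LSD1, 78.1 and 80.3 CPM in vehicle-treated mutants, and 88.7 and 90.2 CPM in wild type. The 3 groups did not overlap and were ordered with treated mutants lowest, but the steps were small. The log2 fold change was -0.08 ± 0.10 for treated against vehicle-treated mutants (adjusted p = 0.995), -0.18 ± 0.10 for vehicle-treated mutants against wild type (adjusted p = 0.463) and -0.26 ± 0.10 for treated mutants against wild type (unadjusted p = 0.0210, adjusted p = 0.216). The ratio of Unc13b to Unc13a per unit of exonic length ranged from 0.0852 to 0.110 over the 6 libraries, and treated mutants overlapped both other groups. That length joins the exons of all annotated transcripts, 22.7 kb for Unc13b, so the size of the ratio depends on the annotation.

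Unc13c, which encodes Munc13-3, the form known from cerebellar granule cells (chr9:73479422-73968966, minus strand), varied widely between libraries of 1 group. It had 31.5 and 18.9 CPM with GSK-LSD1, 28.4 and 38.9 CPM in vehicle-treated mutants, and 24.0 and 26.8 CPM in wild type. The treated libraries spanned the wild type and reached into the vehicle-treated range. Log2 fold changes were -0.40 ± 0.25 for treated against vehicle-treated mutants (adjusted p = 0.969), 0.40 ± 0.25 for vehicle-treated mutants against wild type (adjusted p = 0.544) and 0.0015 ± 0.25 for treated mutants against wild type (adjusted p = 0.999). The granule cell gene Gabra6 lay at 0 to 0.230 CPM in the 6 libraries, and 10 granule cell markers, which include Zic1, summed to 53.0 and 96.7 CPM with GSK-LSD1, 43.1 and 64.7 CPM in vehicle-treated mutants, and 45.4 and 41.6 CPM in wild type.

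Unc13d, which encodes Munc13-4, a factor of granule release in blood cells (chr11:116062095-116077961, minus strand), was near the limit of detection. It had 9 and 6 reads with GSK-LSD1, 12 and 23 reads in vehicle-treated mutants, and 18 and 7 reads in wild type, or 0.253 to 1.23 CPM over all libraries. The treated libraries were under the vehicle-treated ones and within the wild-type range. At these counts its differences of -1.01 ± 0.78 between treated and vehicle-treated mutants (adjusted p = 0.986), 0.22 ± 0.74 between vehicle-treated mutants and wild type (adjusted p = 0.939) and -0.79 ± 0.81 between treated mutants and wild type (adjusted p = 0.709) were not detectable.

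Cadps, which encodes CAPS1, the broadly expressed priming factor of dense-core vesicles (chr14:12372563-12823079, minus strand), had 361 and 371 CPM with GSK-LSD1, 388 and 346 CPM in vehicle-treated mutants, and 384 and 406 CPM in wild type. The treated libraries lay inside the vehicle-treated range and just under the wild type. Log2 fold changes were -0.0035 ± 0.11 (adjusted p = 0.999) for treated against vehicle-treated mutants, -0.11 ± 0.11 (adjusted p = 0.740) for vehicle-treated mutants against wild type and -0.11 ± 0.11 (adjusted p = 0.686) for treated mutants against wild type. With library size scaling the value for treated against vehicle-treated mutants was 0.0071.

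Cadps2, which encodes CAPS2, known for promoting release of BDNF and NT-3 (chr6:23262773-23839421, minus strand), had 170.2 and 153 CPM with GSK-LSD1, 179 and 119 CPM in vehicle-treated mutants, and 127 and 142 CPM in wild type. Treated mutants stood above both wild-type libraries and inside the wide range of the vehicle-treated mutants. Log2 fold changes were 0.12 ± 0.16 (adjusted p = 0.995) for treated against vehicle-treated mutants, 0.15 ± 0.17 (adjusted p = 0.781) for vehicle-treated mutants against wild type and 0.27 ± 0.17 (adjusted p = 0.494) for treated mutants against wild type. The ratio of Cadps2 to Cadps per unit of exonic length was 0.742 and 0.651 with GSK-LSD1, 0.726 and 0.543 in vehicle-treated mutants, and 0.520 and 0.550 in wild type.

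**Figure D3:**
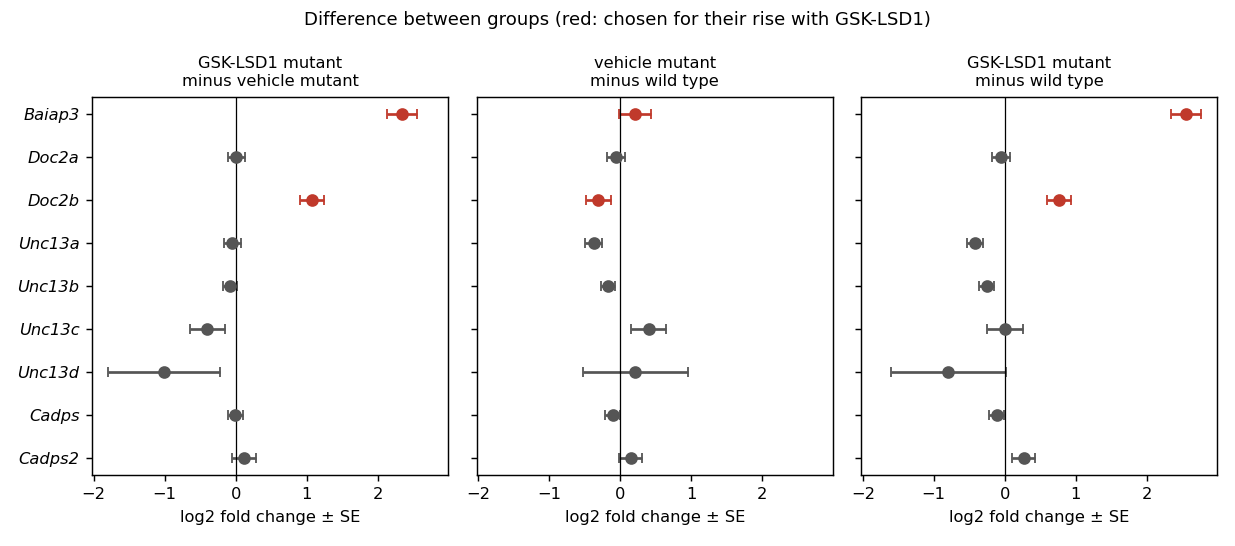
Log2 fold change with its SE (x axis) for each of the 9 genes (rows) in 3 comparisons: treated minus vehicle-treated mutants (left), vehicle-treated mutants minus wild type (middle) and treated mutants minus wild type (right). Baiap3 and Doc2b, in red, were chosen for their rise. Baiap3 stands at 2.35 and 2.55 in the outer panels, and Unc13a at -0.37 and -0.42 in the comparisons with wild type.

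Of the 7 genes not chosen for their rise, 0 passed in treated against vehicle-treated mutants, where 0.107% of all genes passed. An unadjusted p under 0.05 was found for 0 of the 7 and for 5.70% of all genes. Their median log2 fold change was -0.05, against -0.00070 over all tested genes. In that comparison 2 of the 7 (Unc13b and Unc13d) had both treated libraries under both vehicle-treated libraries and 0 had both above, where 16.6% and 17.0% of all genes did so. DESeq2 and limma-voom called 0 of the 7 as well.

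In vehicle-treated mutants against wild type 0 of the 7 passed edgeR's test, where 1.27% of all genes passed. Of the 7, 1 had an unadjusted p under 0.05 (Unc13a), as did 14.0% of all genes. DESeq2 called 1 and limma-voom 0. Their median was -0.06, against 0.02 over all genes. Unc13c was higher without overlap and Doc2a, Unc13a and Unc13b lower without overlap, while 23.1% of all genes were apart in each direction. In treated mutants against wild type 0 of the 7 passed, where 2.62% of all genes passed. Here 2 had an unadjusted p under 0.05 (Unc13a and Unc13b), as did 15.7% of all genes, and DESeq2 and limma-voom each called 1 (Unc13a). The median was -0.11, against 0.02. Cadps2 was higher without overlap and Unc13a, Unc13b and Cadps lower without overlap, where 23.5% and 22.4% of all genes were apart in those directions.

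Divided by exonic length (GENCODE M21), the 9 genes kept only part of their order over the 6 libraries. Unc13a, Cadps, Cadps2 and Doc2a had ranks 1 to 4 and Unc13d rank 9 in each of the 6 libraries. Baiap3 had rank 5 in both treated libraries and 8 in the other 4. Its level was 8.30 and 10.1 CPM per kb with GSK-LSD1, 2.27 and 1.35 CPM per kb in vehicle-treated mutants, and 1.71 and 1.44 CPM per kb in wild type. In treated mutants it thus lay between Doc2a, at 13.1 and 10.8 CPM per kb, and Doc2b, at 5.57 and 5.33 CPM per kb. The higher rank and level of Baiap3 there restate the rise for which it was chosen.

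Some neighbours in the order could not be separated. In treated mutants Unc13b, at 3.36 and 3.23 CPM per kb, lay within the range of Unc13c, at 3.58 and 2.15. In vehicle-treated mutants Unc13b, at 3.44 and 3.53, again lay within the range of Unc13c, at 3.22 and 4.42, and Doc2b, at 2.59 and 2.60, lay above Baiap3. In wild type Doc2b, at 3.77 and 2.73, overlapped Unc13c, at 2.72 and 3.05, and Unc13b, at 3.90 and 3.96, lay just above. The higher genes were apart from each other in wild type, with 43.0 ± 3.93 CPM per kb for Unc13a, 26.2 ± 1.01 for Cadps, 14.1 ± 1.09 for Cadps2 and 12.4 ± 0.0160 for Doc2a. In vehicle-treated mutants Cadps2, at 18.7 and 12.5 CPM per kb, came close to Doc2a, at 11.9 and 11.97.

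**Figure D4:**
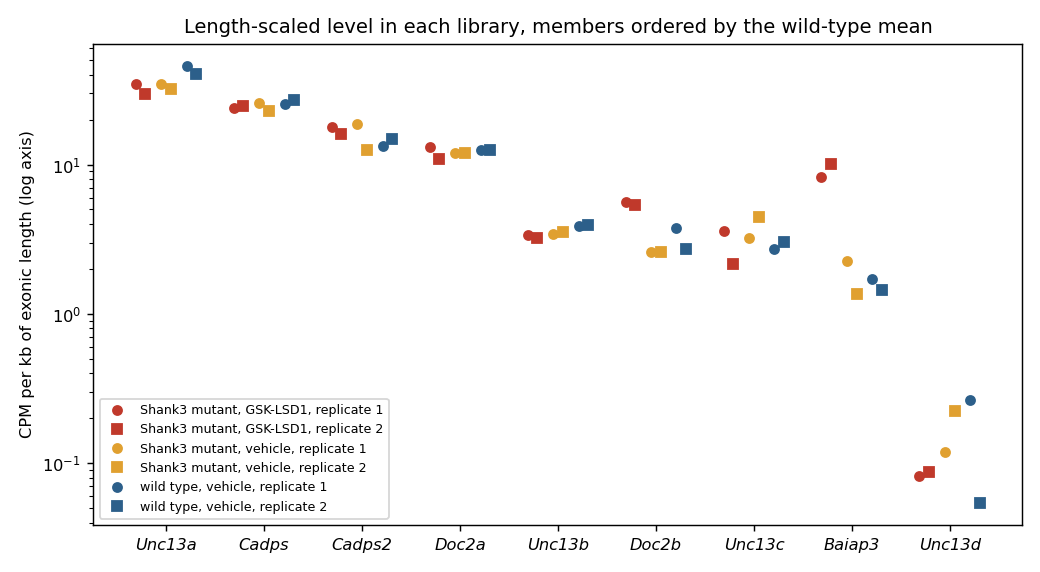
Level per exonic length (CPM per kb, log axis) of the 9 genes in each library, ordered by the wild-type mean. Red is mutants given GSK-LSD1, yellow mutants given vehicle and blue wild type, with circles for replicate 1 and squares for replicate 2. Baiap3 at 8.30 and 10.1 in treated mutants lies above Doc2b, Unc13b and Unc13c in any group, and Unc13d lies under 0.3 throughout.

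The proteins that these genes work with were read from a list of 36 partners in priming and fusion: SNAREs, their Munc18 and complexin regulators, RIM, RIM-BP, Rab3 and active zone scaffolds. In treated against vehicle-treated mutants 0 of 36 passed in edgeR, DESeq2 or limma-voom and 4 had an unadjusted p under 0.05 in edgeR (5.70% of all genes), with a median of -0.10. The smallest p belonged to the complexin Cplx1, with 224 and 227 CPM with GSK-LSD1 and 279 and 284 CPM with vehicle (-0.32 ± 0.10, adjusted p = 0.557), and next to Rab3c (-0.28 ± 0.13, adjusted p = 0.851). In vehicle-treated mutants against wild type 2 of 36 fell and 0 rose, with a median of -0.05, where 0.994% of all genes passed as lower and 0.278% as higher. These were the active zone scaffolds Bsn, at 858 and 794 CPM against 1647 and 1175 CPM (-0.77 ± 0.14, adjusted p = 0.0235), and Pclo, at 687 and 521 CPM against 989 and 892 CPM (-0.64 ± 0.13, adjusted p = 0.0302). In treated mutants against wild type 5 of 36 fell and 0 rose, with a median of -0.15, where 1.99% of all genes passed as lower and 0.636% as higher. Bsn stood at -0.98 ± 0.14 and Pclo at -0.93 ± 0.13, the vesicle SNARE Vamp2 at -0.69 ± 0.12, the RIM-binding protein Rimbp2 at -0.68 ± 0.12 and the Rab3 effector Rph3a at -0.50 ± 0.13 (adjusted p between 0.00458 and 0.0460). Without wild-type replicate 1 the number that passed was 0 in both comparisons with wild type, where 6 of all genes then passed in each. For vehicle-treated mutants against wild type it was also 0 without either vehicle-treated library, 4 without wild-type replicate 2 and 5 without either treated library. The astrocyte and excitatory neuron markers described with Unc13a come from the same libraries, and their part in these values was not tested.

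Of 14 synaptotagmins, the larger family of C2-domain calcium sensors, 0 passed in treated against vehicle-treated mutants in edgeR, DESeq2 or limma-voom, and 1 had an unadjusted p under 0.05 in edgeR (5.70% of all genes). Syt17 had the smallest p there, with 90.7 and 78.8 CPM with GSK-LSD1, 61.3 and 68.5 CPM in vehicle-treated mutants, and 100.1 and 85.6 CPM in wild type (0.39 ± 0.12, adjusted p = 0.499). It was the 1 synaptotagmin that fell in vehicle-treated mutants against wild type (-0.51 ± 0.12, adjusted p = 0.0391). Syt10, next by p with the inhibitor, stood at 0.27 ± 0.21 (adjusted p = 0.986). In treated mutants against wild type 1 fell, Syt1, the fast sensor of synaptic vesicle release, at 1789 and 1569 CPM against 2320 and 2283 CPM (-0.45 ± 0.12, adjusted p = 0.0498). As lower, 0.994% of all genes passed in the first of these comparisons and 1.99% in the second. Syt17 was not called with upper quartile or library size scaling or with a fit that was not robust. Syt1 was not called with any of these, with RLE scaling or with the 4 libraries compared. Syt17 lost its call without wild-type replicate 1 or either vehicle-treated library, and Syt1 lost its call when any library but treated replicate 1 was left out. Without wild-type replicate 1 few of all genes passed in either comparison.

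Of 25 dense-core vesicle genes (granins, prohormone convertases and neuropeptides) 0 passed with the inhibitor against vehicle in the mutants, 2 had an unadjusted p under 0.05 (5.70% of all genes), and DESeq2 and limma-voom called 0. The 2 were Vgf, a granin-like precursor, and prodynorphin Pdyn. Vgf lay at 225 and 230 CPM against 182 and 158 CPM (0.42 ± 0.11, adjusted p = 0.336). Pdyn lay at 44.4 and 28.3 CPM against 20.3 and 25.2 CPM (0.69 ± 0.20, adjusted p = 0.581). Without the filter on low counts edgeR called Pdyn higher, and more of all genes passed too. The receptor-type phosphatases of the vesicle membrane Ptprn (-0.57 ± 0.12, adjusted p = 0.0302) and Ptprn2 (-0.47 ± 0.11, adjusted p = 0.0492) fell in vehicle-treated mutants against wild type. Ptprn (-0.51 ± 0.12, adjusted p = 0.0262) and the convertase Pcsk2 (-0.48 ± 0.12, adjusted p = 0.0403) fell in treated mutants against wild type, and 0 genes of the list rose in either. Over all genes 0.994% passed as lower and 0.278% as higher in the first of these comparisons, and 1.99% and 0.636% in the second. In the first, edgeR also called Npy higher and Pcsk2 lower without the filter and with the 4 libraries compared. More of all genes passed under these settings too. With library size scaling 0 genes of the list passed in both. The same held with a fit that was not robust in the first, and with the 4 libraries compared in the second. Without wild-type replicate 1 the list kept no call in either, and few of all genes passed there. The list also kept none without either vehicle-treated library in the first and without treated replicate 2 in the second. Ptprn2 lost its call in the first, and Pcsk2 in the second, without wild-type replicate 2. Pcsk2 also lost it without either vehicle-treated library.

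Of 14 genes of LSD1 and its CoREST partners, the complex that holds the target of the inhibitor, 13 were tested. By edgeR, DESeq2 or limma-voom 0 of them passed in any comparison. In edgeR 0.107% of all genes passed with the inhibitor against vehicle. Against wild type 1.27% passed in vehicle-treated and 2.62% in treated mutants. Without the filter on low counts edgeR called Gse1 lower in both comparisons with wild type, and more of all genes passed too. At an unadjusted p under 0.05 there were 0 with the inhibitor against vehicle, 4 in vehicle-treated mutants against wild type and 2 in treated mutants against wild type, where 5.70%, 14.0% and 15.7% of all genes were. With the inhibitor against vehicle the smallest p belonged to Zmym3 (0.15 ± 0.10) and Phf21a (0.19 ± 0.13), both with adjusted p = 0.975. In vehicle-treated mutants against wild type it belonged to Rest (0.58 ± 0.22, adjusted p = 0.216) and Zmym3 (-0.25 ± 0.10, adjusted p = 0.257), and in treated mutants against wild type to Rest (0.61 ± 0.22, adjusted p = 0.168).

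Across the 6 libraries Baiap3 and Doc2b had a Pearson correlation of 0.90 on the log2 CPM scale. All such values describe 6 points that share their libraries, with the 2 treated ones apart from the rest. Baiap3 and Doc2b were chosen for their rise in those 2 libraries. A high correlation between them, or with other genes high there, follows from that choice. Among 13056 ranked genes the 5 most like Baiap3 were Scarf2 (0.993), Stard3nl (0.991), Zcchc12 (0.991), Nek10 (0.988) and Mir670hg (0.987). The 5 most like Doc2b were Hap1 (0.982), Fam53a (0.979), Matk (0.977), Tmem132e (0.975) and Mrpl10 (0.970). Likeness in shape did not mean likeness in size. Nek10 had 24.1 and 25.4 CPM with GSK-LSD1, 11.03 and 6.44 CPM in vehicle-treated mutants, and 9.65 and 7.41 CPM in wild type, while Stard3nl had 46.5 and 46.2 CPM, 41.9 and 40.00 CPM, and 40.9 and 39.7 CPM. Hap1 had 218 and 232 CPM with GSK-LSD1, 98.9 and 89.1 CPM in vehicle-treated mutants, and 125 and 99.5 CPM in wild type, and both its vehicle-treated libraries lay under the wild type, as for Doc2b. Among the 9 genes themselves, Unc13a and Unc13b had a correlation of 0.88 and Baiap3 and Unc13b one of -0.78.

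**Figure D5:**
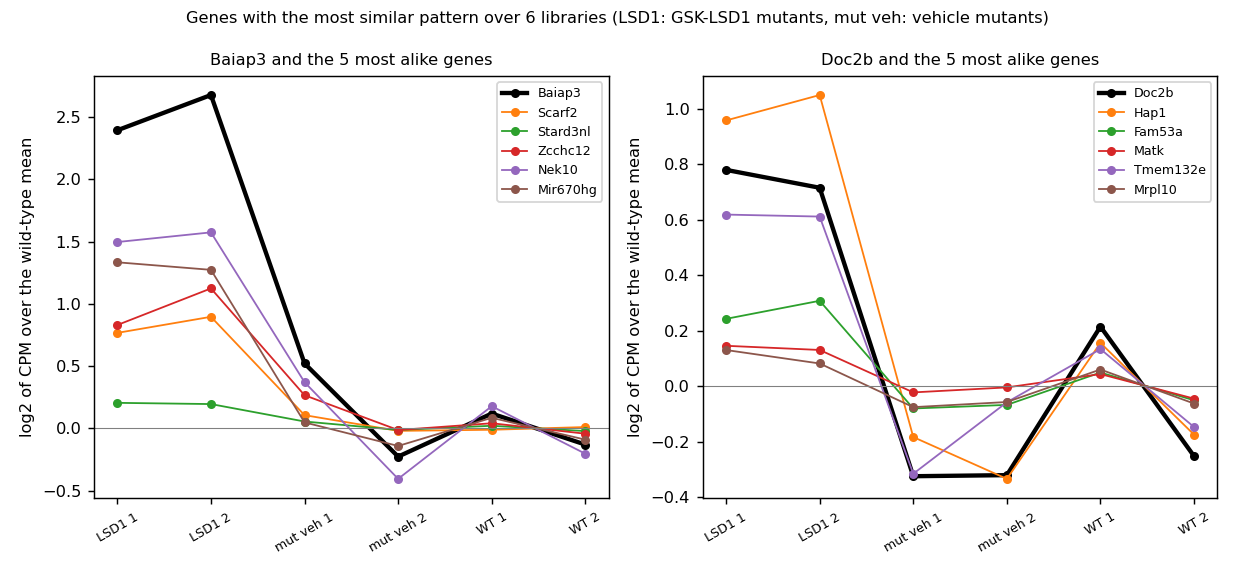
Log2 of CPM over the wild-type mean (y axis) in each of the 6 libraries (x axis: mutants given GSK-LSD1, mutants given vehicle, wild type) for Baiap3 and the 5 genes most like it (left) and for Doc2b and the 5 most like it (right). Lines join libraries for reading only. Both treated libraries lie above all others for each gene drawn, with Baiap3 and, on the right, Hap1 the farthest from 0.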

How the data were processed

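Whole-lysate RNA of 6 prefrontal cortex samples, 2 per group, was sequenced on an Illumina instrument from stranded, ribosome-depleted libraries, per the labels' protocols. The deposited files hold read counts, not normalized, 1 value for each gene symbol. Per the submitters' processing notes the authors used cutadapt, TopHat2, SAMtools, featureCounts and edgeR on mm10 (GRCm38). The sources used here give no versions, annotation release or strand setting, so overlapping genes may share counts. All 37 mitochondrial entries stood at 0, and 26 date-like entries held at most 0.298% of reads. Duplicates were not the same library: chi-square over its degrees of freedom was 9.07 to 12.0 within groups.

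The tests were run in R 4.3.3 with edgeR 4.0.16: filterByExpr, TMM and a robust quasi-likelihood fit of 3 groups to all 6 libraries, with 3 residual degrees of freedom. Tests were two-sided. An SE is the size of the log2 fold change over the root of its F statistic. Alternatives were scaling by RLE, upper quartile or library size, other filters on low counts, DESeq2 1.42.0, limma-voom (limma 3.58.1), a fit that was not robust, 4-library fits, a replicate block and each library left out. Exonic lengths came from GENCODE M21 and promoter windows from RefSeq (GRCm38.p6). A gene's exonic length joins the exons of all its annotated transcripts and can exceed that of the transcripts expressed. Ranks and ratios between genes depend on it.

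The 9 genes, the lists, the rule for named genes and the motifs were chosen with earlier results of these data known. Named genes were the 9, Shank3, Kdm1a, up to 6 genes per list and comparison that passed (or the 2 with the smallest p where none did), 3 cell type markers and the 5 genes most correlated with Baiap3 or Doc2b. Other marker genes, neighbours and genes with both half-sites were named after their values were seen, and so was the split at 10 kb made.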

Additional observations from a re-analysis of the deposited data

How the results depend on the processing

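For Baiap3 and Doc2b, chosen for their rise, only the range of values is given. Baiap3 ran from 2.02 to 2.77 (log2 fold change) against vehicle-treated mutants and from 2.41 to 2.68 against wild type over 16 alternatives, and Doc2b from 1.03 to 1.11 and from 0.53 to 1.00. With a library left out, the lone sample of a group is assumed to vary like the other groups. Unc13a passed against wild type in 5 of 16 alternatives for treated mutants: DESeq2, limma-voom, no filter, the replicate block and without treated replicate 1. For vehicle-treated mutants it passed in 1 of 16, DESeq2.

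Counts over the 9 genes include the 2 chosen for their rise and say nothing of the family. They were 2 in treated against vehicle-treated mutants (1 to 2 with a library left out), where 0.107% of all genes passed, and 2 in treated mutants against wild type (1 to 2 with a library left out, and 3, with Unc13a, without a filter, with DESeq2, limma-voom or the replicate block), where 2.62% did. In vehicle-treated mutants against wild type 0 passed, and DESeq2 called 1, Unc13a. Partners passing in vehicle-treated mutants against wild type numbered 2, and 0 with library size scaling or a fit that was not robust, 5 without a filter or with the 4 libraries compared, 6 with DESeq2 and 0 to 5 with a library left out. In treated mutants against wild type they numbered 5, and 8 without a filter, 9 with DESeq2 and 0 to 5 with a library left out. In treated against vehicle-treated mutants 0 partners passed under each alternative.

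Over all genes, 20 passed in treated against vehicle-treated mutants, and 106 without a filter, 35 with DESeq2 and 10 to 83 with a library left out. In vehicle-treated mutants against wild type 238 passed, and 141 with upper quartile scaling, 35 with library size scaling (15 higher, 20 lower, where TMM gave 52 and 186), 807 without a filter, 602 with DESeq2, 11 with a fit that was not robust, 524 with the 4 libraries compared and 6 to 656 with a library left out. In treated mutants against wild type 491 passed, and 253 with library size scaling (111 higher, 142 lower, where TMM gave 119 and 372), 962 without a filter, 782 with DESeq2 and 6 to 631 with a library left out.

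Some values that did not pass changed sign. With library size scaling Cadps stood at 0.0071 in treated against vehicle-treated mutants, and Doc2a at 0.015 in vehicle-treated and 0.029 in treated mutants against wild type. Unc13c in treated mutants against wild type, 0.0015 as reported, was -0.0036 with RLE, -0.0063 without a filter, -0.0091 with DESeq2, -0.013 with limma-voom and -0.0023 with the replicate block. With a library left out, values in treated against vehicle-treated mutants ran from -0.14 to 0.14 for Doc2a, -0.17 to 0.069 for Unc13a, -0.086 to 0.086 for Cadps and -0.15 to 0.44 for Cadps2. In vehicle-treated mutants against wild type they ran from -0.22 to 0.54 for Baiap3, -0.63 to 1.63 for Unc13d and -0.18 to 0.41 for Cadps2. In treated mutants against wild type they ran from -0.21 to 0.078 for Doc2a, -0.43 to 0.31 for Unc13c and -1.63 to 0.62 for Unc13d. The cause was not tested.

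The labels do not say that replicate numbers pair the animals. Deviations of same-numbered libraries correlated at 0.157 in treated and vehicle-treated mutants, -0.0797 in vehicle-treated mutants and wild type, and -0.0699 in treated mutants and wild type. With the replicate number as a block 18, 233 and 505 of all genes, 2, 0 and 3 of the 9 genes and 0, 2 and 5 partners passed in the 3 comparisons. Library size scaling moved the median of all genes by at most 0.081 log2. Unc13d had no value against wild type for treated mutants with the 4 libraries compared, where the filter removed it. With 2 libraries a group, differences as small as those of the 7 relatives may go undetected, and 6 to 23 reads of Unc13d limit any statement on it.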
